A study of Mus musculus with 6 samples.

Results

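The 10 genes described here encode the 5 subunits of NF-κB (*Nfkb1*, *Nfkb2*, *Rel*, *Rela* and *Relb*), 4 inhibitors or regulators of it (*Nfkbia*, *Nfkbie*, *Nfkbiz* and *Tnfaip3*) and one of its classical targets (*Icam1*). The set was chosen by pathway role with the day 10 and day 14 FPKM values of these samples already known. Its members were found by gene symbol among the 23284 genes listed for each sample, and all 10 were present and above 0 FPKM (the fragments of a gene scaled to transcript length and library size) in all 6 samples. The values come from ECFP+ osteoblasts (OBs) sorted on day 10 (n = 3) and day 14 (n = 3) from ectopic bone that recombinant human BMP-2 had induced under the skin of *Col2.3*-ECFP mice. Both groups were male *Col2.3*-ECFP mice, 12 to 16 weeks old by the methods, that carried a collagen sponge with 2.5 μg of BMP-2. The groups differed in the day, and also in the digestion, because 1 collagenase II digestion of 40 min was used for the bone of day 10 and 2 such digestions for that of day 14. The day and the second digestion cannot be told apart. In these mice a fragment of the type I collagen promoter drives ECFP, so the sort collects cells in which that promoter is active, and the sort excluded dead cells and cells with CD45 on their surface. The titles call the samples biological replicates, and how many mice were pooled in a sample is not given in the sources used here. The titles place all 3 later samples on day 14, while their descriptions give day 14, 15 and 16.

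NF-κB is a family of dimeric transcription factors that share the Rel homology domain and bind κB sites in DNA. In a resting cell the dimers are held in the cytoplasm by IκB proteins, and signals such as TNF, IL-1 and Toll-like receptor ligands activate the IκB kinase, after which IκBα is degraded and the dimers enter the nucleus. Several inhibitors are themselves NF-κB targets and so close a feedback loop. In OBs the pathway is known for inducing chemokines, IL-6 and adhesion molecules, and for opposing matrix production during inflammation. The activity of these proteins is set largely after translation, so the RNA levels given here are levels of transcripts and not of nuclear NF-κB.

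NF-κB is known to induce several of these genes through κB sites near their starts, and promoter sequences are shown for that reason. RefSeq windows of 300 bases on GRCm38.p6 (the mm10 build), from 250 bases before to 50 after a transcription start, were found for 7 of the 10 genes, with 10 windows in all. Both strands were searched for the κB consensus and for the 9 bases GGAAATTCC, which were chosen after the windows of *Icam1* and *Nfkbia* had been read. The 9 bases can overlap a consensus match, as they do in *Nfkbia*. The consensus was found in 5 of the 7 genes, beside 9.55% of the 27025 genes that have a window. With the 9 bases added it was 6 of 7 and 9.72%, but the added gene, *Icam1*, is one whose window led to the choice of those bases. For the 9 bases alone, which that choice likewise affects, the numbers were 3 of 7 genes (*Icam1*, *Nfkbia* and *Tnfaip3*) and 0.381% of all genes. A match is a description of the sequence and does not show that it is bound. The bases before the start are printed 5′ to 3′ on the strand of the gene, with the matches in capitals, for the 4 genes whose matches at the first start lie outside annotated exons. *Icam1* is read from chr9:21015690-21015939 (plus strand), *Nfkbia* from chr12:55492648-55492897 (minus strand), *Nfkbie* from chr17:45555450-45555699 (plus strand) and *Rel* from chr11:23770971-23771219 (minus strand).
Icam1: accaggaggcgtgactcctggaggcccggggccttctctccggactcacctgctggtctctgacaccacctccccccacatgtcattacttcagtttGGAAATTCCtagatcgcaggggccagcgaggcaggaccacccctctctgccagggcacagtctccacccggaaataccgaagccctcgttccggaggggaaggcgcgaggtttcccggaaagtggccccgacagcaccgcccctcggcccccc
Nfkbia: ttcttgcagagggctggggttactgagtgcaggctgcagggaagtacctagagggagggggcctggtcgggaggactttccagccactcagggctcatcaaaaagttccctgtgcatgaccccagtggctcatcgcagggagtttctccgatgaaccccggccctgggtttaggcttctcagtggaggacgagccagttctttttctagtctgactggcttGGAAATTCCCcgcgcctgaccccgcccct
Nfkbie: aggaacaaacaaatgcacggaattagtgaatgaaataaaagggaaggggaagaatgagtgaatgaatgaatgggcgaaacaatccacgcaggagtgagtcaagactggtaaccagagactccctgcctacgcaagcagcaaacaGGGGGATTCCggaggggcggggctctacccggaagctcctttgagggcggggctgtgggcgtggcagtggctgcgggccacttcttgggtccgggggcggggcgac
Rel: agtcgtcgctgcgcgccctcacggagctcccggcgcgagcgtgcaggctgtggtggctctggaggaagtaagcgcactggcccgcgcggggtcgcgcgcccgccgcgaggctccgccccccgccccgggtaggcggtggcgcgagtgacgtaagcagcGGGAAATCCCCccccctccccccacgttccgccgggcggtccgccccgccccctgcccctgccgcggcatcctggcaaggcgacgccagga

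In *Nfkb2* and *Tnfaip3* the matches near the first start fall within an annotated exon, and 30 bases are shown for each. The run of *Nfkb2* covers chr19:46304698-46304727 (plus strand), from 39 to 10 bases before that start, and a further consensus match from 11 to 2 bases before the start, which begins in the last 2 bases of the run, is not marked. The run of *Tnfaip3* covers chr10:19015411-19015440 (minus strand), the 30 bases before that start, and holds a match to the 9 bases on the opposite strand followed by a κB consensus.
Nfkb2: GGGAATTCCCCccctcggggggccgaaagg
Tnfaip3: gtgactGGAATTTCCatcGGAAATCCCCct

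No match was found in the window of *Rela*, which says only that these letters are not in those 300 bases. The second start of *Tnfaip3* held none either, while all 3 windows of *Nfkb2* held at least 1. Of the 75 pathway genes outside the 10 that have a window, 25 held a match of either kind (33.3%), and among NF-κB targets the count was 11 of 22.

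**Figure D1:**
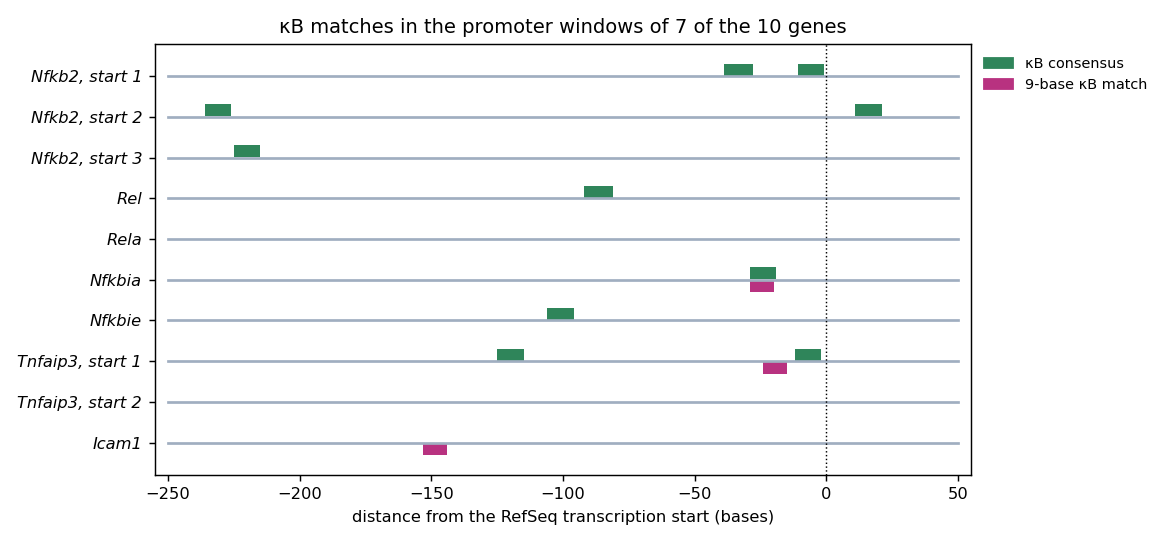
Positions of κB matches in the 10 promoter windows of 7 genes, with the distance from the RefSeq start on the x axis (bases) and 1 line per window. Green bars mark the κB consensus and magenta bars the 9 bases GGAAATTCC; *Rela* and the second start of *Tnfaip3* hold none.

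The depth behind these values was estimated from the steps between low FPKM values, which gave 4527239 to 7737760 mapped reads per sample. The 10 genes rested on about 37.5 to 4690 estimated reads per sample, with the fewest for *Nfkbie* and the most for *Nfkbia*, and a floor of 3 reads on a transcript of 1 kb corresponded to 0.388 to 0.663 FPKM. These figures cover counting error only. The days were compared by limma from the log2(FPKM + 0.1) values of the 19526 genes whose mean was above 0.1 FPKM, a filter that all 10 passed. Fold changes are those of FPKM + 0.1. A log2 fold change is the difference between the day means of log2(FPKM + 0.1), and not the log2 ratio of the mean FPKM values. Since the 10 genes were chosen with their values in these samples known, their levels and fold changes are given as a description with no test. The median log2 fold change of all genes tested was −0.04.

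The OB label was checked first. The 7 OB markers were above 0 in every sample, and *Col1a1*, the main collagen of bone, had 14151 to 34157 FPKM. The sum of the 7 was 54192, 52070 and 28368 FPKM on day 10 and 19619, 38269 and 15669 FPKM on day 14, with none of them higher in mean on day 14. *Ptprc*, which encodes CD45, had 0.259 to 0.721 FPKM on day 10 and 2.99, 0.134 and 2.81 FPKM in replicates 1, 2 and 3 of day 14. The summed FPKM of 10 myeloid markers was 36.1, 162 and 122 on day 10 and 262, 20.4 and 618 on day 14, and all 10 had a higher mean on day 14. The summed FPKM of 8 endothelial markers was 2.05 to 4.02 on day 10 and 3.89 to 8.57 on day 14, with all 8 higher in mean. Lymphoid markers (6 genes) summed to 0.638 to 6.95 FPKM and had 5 genes at 0 in replicate 2 of day 14, and osteoclast markers (5 genes) summed to 428 to 463 FPKM on day 10 and 601 to 653 FPKM on day 14, although only 1 of the 5 had a higher mean on day 14 and 2 were at 0 in replicate 2 of that day. The cartilage markers stood apart in replicate 2 of day 14, where 10 of them summed to 2329 FPKM, while replicates 1 and 3 of that day had 179.5 and 159.99 FPKM and day 10 had 669 to 1302. Myeloid and endothelial cells are known to express several of the 10 genes, and in bulk RNA a change in the number of cells of a type and a change in RNA per cell cannot be told apart. In replicate 2 of day 14, the sample with the lowest myeloid sum and the highest cartilage sum, the endothelial sum of 3.89 FPKM lay within the day 10 range. In this 1 sample *Nfkb1*, *Nfkb2*, *Rela*, *Nfkbia* and *Icam1* were above every day 10 sample, and the other 5 genes lay within the day 10 range. The share of all genes above every day 10 sample in this 1 sample was not computed, so nothing is read from this count. The part of other cells in the levels was not tested for any of the 10 genes.

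**Figure D2:**
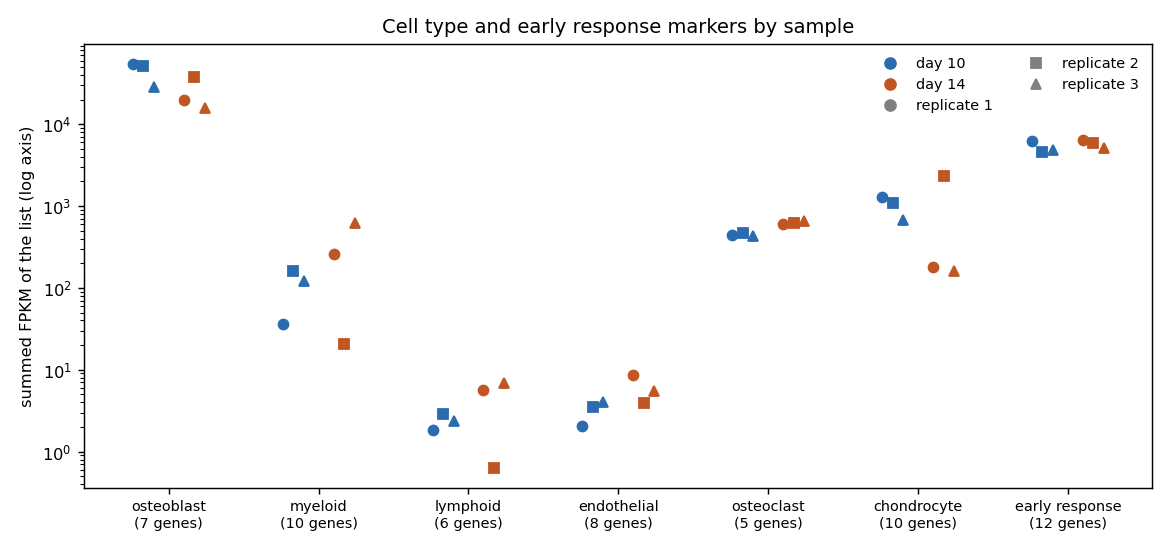
Summed FPKM of 7 marker lists in each sample on a log axis, with day 10 in blue, day 14 in orange and the symbol giving the replicate. Replicate 2 of day 14 has the lowest myeloid sum (20.4 FPKM) and the highest cartilage sum (2329 FPKM) of the 6 samples.

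All 10 genes had a higher mean on day 14. Their log2 fold changes ran from 0.42 (*Nfkbiz*) to 1.49 (*Icam1*) with a median of 0.86, and 3 genes were over 2-fold, namely *Icam1*, *Nfkb1* and *Tnfaip3*. Among all genes tested, 46.5% had a higher mean on day 14 and 5.25% were over 2-fold higher. In 5 of the 10 genes (*Nfkb1*, *Nfkb2*, *Rela*, *Nfkbia* and *Icam1*) every day 14 sample lay above every day 10 sample, beside 7.59% of all genes tested. Nothing is read from these counts, because the contrast was known when the genes were chosen. None of the 10 was separated in the other direction, beside 6.67% of all genes. Without replicate 2 of day 14, all 10 genes were separated upward (15.4% of all genes) and 7 were over 2-fold (all-gene share not computed). That sample was the lowest of day 14 in 8 of the 10 genes, so a wider separation without it follows from its values. It had the lowest myeloid sum and the highest cartilage sum, and its description gives day 15. What set it apart was not tested.

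**Figure D3:**
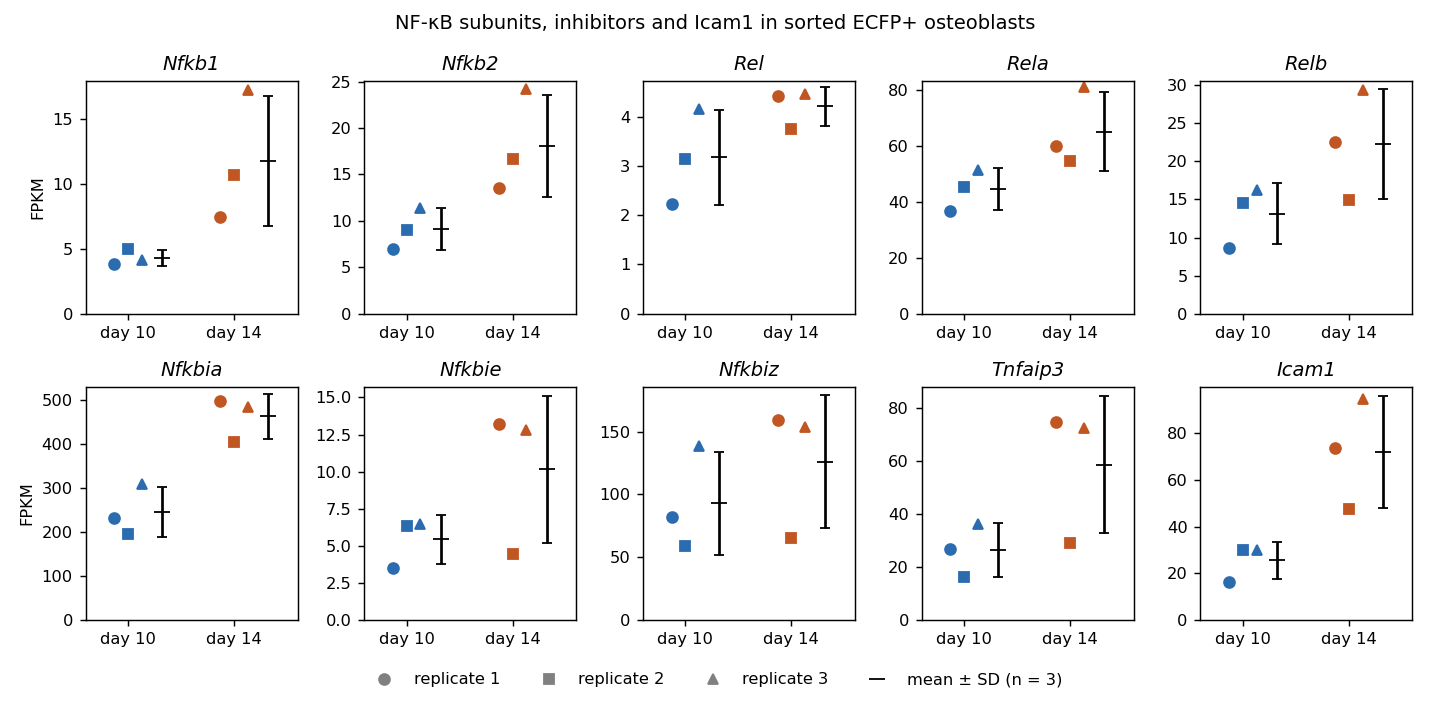
FPKM of the 10 genes in each sample (1 panel per gene, linear axes from 0), with the symbol giving the replicate and a black bar for the mean ± SD (n = 3). *Nfkb1*, *Nfkb2*, *Rela*, *Nfkbia* and *Icam1* do not overlap between the days, and replicate 2 is the lowest day 14 sample in 8 of the 10 genes.

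*Rela*, which encodes p65, the subunit that carries the main activation domain of the canonical dimer, was the most abundant subunit. It had 36.6, 45.4 and 51.5 FPKM on day 10 and 59.8, 54.4 and 81.0 FPKM on day 14. The days did not overlap, but the lowest day 14 sample was only just above the highest day 10 sample, and after scaling each sample to the same FPKM sum they did overlap. The means were 44.5 ± 7.48 and 65.1 ± 14.0 FPKM (SD, n = 3), and the log2 fold change was 0.54 with a standard error of 0.20. *Rela* lies on chromosome 19 from 5637483 to 5648130.

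*Nfkb1*, on chromosome 3 from 135584655 to 135691547, encodes p105, the precursor of the p50 partner of p65. Its transcript had 3.81, 5.02 and 4.13 FPKM on day 10 and 7.44, 10.7 and 17.3 FPKM on day 14. The day 10 samples lay close together and the day 14 samples spread widely, with replicate 3 highest. The log2 fold change was 1.36 (standard error 0.31), the largest of the 5 subunits. The means were 4.32 ± 0.625 and 11.8 ± 5.02 FPKM (SD, n = 3).

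The alternative pathway uses p52, made from the p100 product of *Nfkb2*, together with RelB. *Nfkb2* (chromosome 19, 46304320 to 46312385) had 6.93, 9.06 and 11.4 FPKM on day 10 and 13.5, 16.6 and 24.2 FPKM on day 14, so that the days did not overlap. The log2 fold change of *Nfkb2* was 0.97 (standard error 0.26). Part of its exons overlaps exons of *Psd* and *AC114539.1* on the opposite strand. A strand setting is not given in the sources used here, so reads in these overlaps cannot be told apart. *Relb* (chromosome 7, 19606217 to 19629438) had 8.60, 14.5 and 16.2 FPKM on day 10 and 22.5, 14.9 and 29.4 FPKM on day 14. Replicate 2 of day 14 fell within the day 10 range, and the log2 fold change was 0.76 (standard error 0.31). It was 1.02 without that sample, 0.48 without replicate 1 of day 10 and 0.53 without replicate 3 of day 14.

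*Rel* (chromosome 11, 23736847 to 23770970) encodes c-Rel, a subunit best known from lymphocytes and myeloid cells. It was the lowest of the 10 in mean on both days, at 2.23, 3.13 and 4.16 FPKM on day 10 and 4.42, 3.76 and 4.46 FPKM on day 14. The 3 day 14 samples were close together and replicate 2 again lay inside the day 10 range. The log2 fold change was 0.44 (standard error 0.28), and it was 0.21 without replicate 1 of day 10 and 0.65 without replicate 3 of day 10.

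Among the inhibitors, *Nfkbia* encodes IκBα, the inhibitor that is degraded and resynthesized in each round of activation. It was the most abundant of the 10 genes by FPKM, with 231, 196 and 309 FPKM on day 10 and 499.7, 406 and 485 FPKM on day 14. All 3 day 14 samples were above all 3 day 10 samples, and the day 14 samples differed little among themselves. The means were 245 ± 57.4 and 463 ± 50.4 FPKM (SD, n = 3). The log2 fold change was 0.94 with a standard error of 0.21, and the gene ranked 226 on day 10 and 122 on day 14 among all genes listed. It lies on chromosome 12 from 55489410 to 55492647.

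*Nfkbie* (chromosome 17, 45555703 to 45563169) encodes IκBε, which retains dimers of p65 and c-Rel. Its level was far below that of *Nfkbia*, at 3.50, 6.32 and 6.44 FPKM on day 10 and 13.2, 4.42 and 12.8 FPKM on day 14. Replicates 1 and 3 of day 14 were above every day 10 sample, whereas replicate 2 was below 2 of the 3. The log2 fold change was 0.79 (standard error 0.44). It was 1.30 without replicate 2 of day 14, but 0.50 without replicate 1 of day 10, and 0.52 and 0.54 without replicates 1 and 3 of day 14.

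*Tnfaip3* encodes A20, a ubiquitin-editing enzyme that shuts down signalling from the TNF and Toll-like receptors upstream of the IκB kinase. It had 26.7, 16.2 and 36.3 FPKM on day 10 and 74.7, 28.8 and 72.3 FPKM on day 14, on chromosome 10 from 19000910 to 19015657. Replicates 1 and 3 of day 14 stood well above day 10 and replicate 2 did not. The log2 fold change was 1.10 (standard error 0.41), or 1.55 without replicate 2 of day 14. It fell below 2-fold, at 0.79, 0.86 and 0.89, without replicate 2 of day 10, replicate 1 of day 14 and replicate 3 of day 14.

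*Nfkbiz* (chromosome 16, 55811375 to 55838899) encodes IκBζ, a nuclear IκB protein that helps p50 to activate a set of secondary response genes such as *Il6*. It was the second of the 10 genes by level, with 81.8, 58.8 and 138 FPKM on day 10 and 159, 64.9 and 154 FPKM on day 14. The samples overlapped, since replicate 2 of day 14 was lower than 2 of the 3 day 10 samples. Its log2 fold change of 0.42 had a standard error of the same size (0.41). It was 0.84 without replicate 2 of day 14 and 0.75 without replicate 3 of day 10, but 0.13 without replicate 2 of day 10, and 0.20 and 0.22 without replicates 1 and 3 of day 14.

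*Icam1* encodes an adhesion molecule that binds leukocyte integrins and is induced on many cell types by TNF and IL-1. It lies on chromosome 9 from 21015985 to 21028817, where its exons overlap those of *Gm47079* on the opposite strand, with the limit given for *Nfkb2*. It had 16.4, 29.998 and 30.1 FPKM on day 10 and 73.7, 47.3 and 94.9 FPKM on day 14, so that the lowest day 14 sample was clearly above the highest day 10 sample. The means were 25.5 ± 7.89 and 72.0 ± 23.8 FPKM (SD, n = 3), and the log2 fold change of 1.49 (standard error 0.31) was the largest of the 10 with all samples, though not without replicate 1 of day 10 (1.20, against 1.27 for *Nfkb1*) or replicate 1 of day 14 (1.45, against 1.64 for *Nfkb1*). It was 1.77 without replicate 2 of day 14, and between 1.20 and 1.77 over all fits that left out 1 sample. Its rank among all genes listed was 2170 on day 10 and 848 on day 14.

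By mean FPKM, which is scaled to transcript length, the order on day 10 was *Nfkbia* (245), *Nfkbiz* (93.0), *Rela* (44.5), *Tnfaip3* (26.4), *Icam1* (25.5), *Relb* (13.1), *Nfkb2* (9.12), *Nfkbie* (5.42), *Nfkb1* (4.32) and *Rel* (3.17). The sample ranges of *Tnfaip3* and *Icam1* overlapped, as did those of *Relb* and *Nfkb2*, of *Nfkbie* and *Nfkb1*, and of *Nfkb1* and *Rel*, whereas the other neighbours were apart. On day 14 *Icam1* (72.0 FPKM) stood above *Rela* (65.1) and *Nfkb1* (11.8) above *Nfkbie* (10.1), but only *Nfkbia* and *Nfkbiz* did not overlap among the neighbours of that day.

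A ratio of levels within a sample is free of any scaling between samples. The ratio of *Icam1* to *Rela* was 0.447, 0.661 and 0.583 on day 10 and 1.23, 0.870 and 1.17 on day 14, with no overlap. The ratio of *Nfkb1* to *Rela* was 0.104, 0.111 and 0.0803 on day 10 and 0.124, 0.197 and 0.214 on day 14, again with no overlap. The ratio of *Nfkb2* to *Rela* was 0.189, 0.200 and 0.221 on day 10 and 0.226, 0.306 and 0.299 on day 14. It was also higher in every day 14 sample, but the lowest of them was only just above the highest day 10 sample. The means were 0.203 ± 0.0159 on day 10 and 0.277 ± 0.0441 on day 14 (SD, n = 3). The ratios of *Relb*, *Rel*, *Nfkbia*, *Nfkbie*, *Tnfaip3* and *Nfkbiz* to *Rela* overlapped between the days. The ratio of *Rel* to *Rela* was 0.0702 ± 0.00994 on day 10 and 0.0660 ± 0.00973 on day 14, and that of *Nfkbia* to *Rela* was 5.54 ± 1.06 and 7.27 ± 1.20 (SD, n = 3). The transcripts of p105 and p100 were thus higher relative to that of p65 in every day 14 sample than in any day 10 sample, for p100 by a narrow margin. IκBα RNA stood in an overlapping ratio to p65 RNA, with a mean that was also higher on day 14. The share of all genes with a separated ratio to *Rela* was not computed, so nothing is read from these separations.

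**Figure D4:**
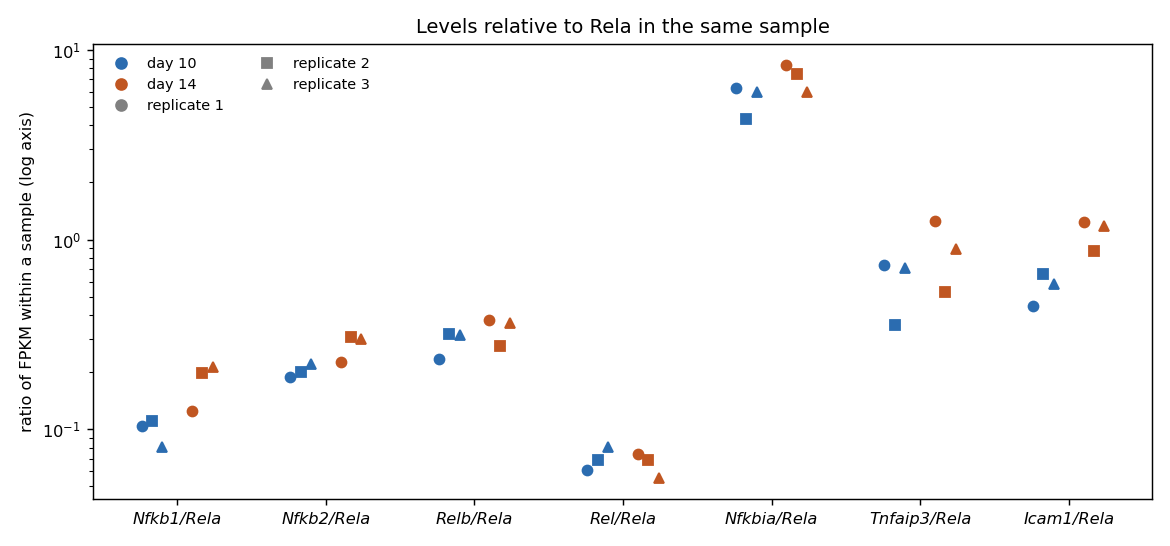
FPKM of 7 genes divided by that of *Rela* in the same sample, on a log axis, with day 10 in blue, day 14 in orange and the symbol giving the replicate. The ratios of *Nfkb1*, *Nfkb2* and *Icam1* do not overlap between the days, and the other 4 do.

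The 10 genes did not vary alike among the samples of a day. On day 10, replicate 1 was lowest in 7 genes and replicate 2 in *Nfkbia*, *Nfkbiz* and *Tnfaip3*. On day 14, replicate 3 was highest in all 5 subunit genes and *Icam1*, and replicate 1 was highest in *Nfkbia*, *Nfkbie*, *Nfkbiz* and *Tnfaip3*. In these 4 genes replicates 1 and 3 were nearly equal. They had 499.7 and 485 FPKM for *Nfkbia*, 13.2 and 12.8 for *Nfkbie*, 159 and 154 for *Nfkbiz*, and 74.7 and 72.3 for *Tnfaip3*. *Rel* was nearly equal in them too (4.42 and 4.46 FPKM). Replicate 2 was the lowest day 14 sample in 8 genes, the exceptions being *Nfkb1* and *Nfkb2*. How often each replicate was highest or lowest over all genes was not computed. Over the 6 samples the 45 pairwise correlations of log2(FPKM + 0.1) ranged from 0.27 (*Nfkb1* with *Nfkbiz*) to 0.96 (*Rela* with *Relb*) with a median of 0.79. These points share the libraries and the change of day, and the correlations are a description only.

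Of the 11161 other genes with a mean of at least 1 FPKM, those most like *Icam1* over the 6 samples were *Ctsb*, *Adprh*, *Il6st*, *Akap13* and *Ctsl*, with r from 0.994 to 0.997. *Ctsb* and *Ctsl* encode lysosomal cathepsins and *Il6st* the shared receptor chain of the IL-6 family. Those most like *Nfkbia* were *Slc1a5*, *Abhd16a*, *Tmem30b*, *Parp12* and *Adcy2*, with r from 0.995 to 0.997. These correlations rest on 6 libraries and are a description of them.

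The other genes of the pathway were taken as a list of 95 by role, of which 94 passed the filter on low values. With Benjamini-Hochberg adjustment over all genes tested, 1 of the 94 was higher and 0 lower at an adjusted p under 0.05 from limma, beside 0.0154% and 0% of all genes. That gene was *Cxcl2*. At an unadjusted p under 0.05, 20 of the 94 were higher on day 14 and 2 lower, beside 5.6% and 4.4% of all genes. Of those, 10 were over 2-fold higher and 0 over 2-fold lower, beside 1.79% and 2.04% of all genes. The median log2 fold change was 0.33 over the list, against −0.04 for all genes tested. The list was chosen with earlier results of these data known, so these counts are a description and nothing is read from them. The share of all genes also depends on the filter. An unadjusted p under 0.05 from limma, in either direction, was found in 1954 of 19526 genes, and in 1704 of the 11162 with a mean FPKM above 1. With that filter 22 pathway genes were higher and 2 lower.

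**Figure D5:**
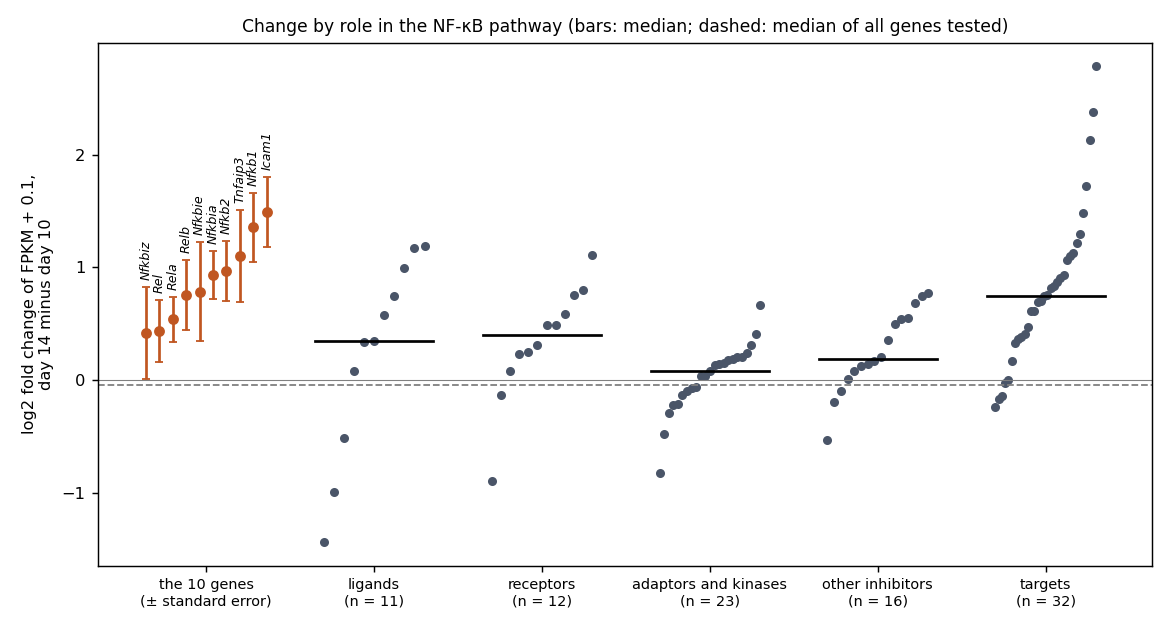
Log2 fold change of FPKM + 0.1 (day 14 minus day 10) for the 10 genes with standard errors and for 94 pathway genes by role, 1 point per gene, with black bars for the median of a role and a dashed line for the median of all genes (−0.04). The median is highest for targets (0.75) and lowest for adaptors and kinases (0.08).

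The 32 targets had a median log2 fold change of 0.75. At an unadjusted p under 0.05, 12 were higher and 0 lower, beside 5.6% and 4.4% of all genes. *Cxcl2*, a neutrophil chemokine, had 19.6, 20.6 and 24.9 FPKM on day 10 and 65.2, 69.1 and 80.7 FPKM on day 14. It rose by 1.72 on the log2 scale (standard error 0.16, adjusted p = 0.0225 from limma), and that adjusted p stayed under 0.05 in 5 of 14 alternatives, with a range of 0.0123 to 0.361. *Il6*, the cytokine that IκBζ helps to induce, had 105, 87.4 and 97.2 FPKM on day 10 and 214, 199 and 218 FPKM on day 14 (log2 fold change 1.13, standard error 0.15, adjusted p = 0.116 from limma). *Cxcl1* had the highest level of the targets, at 974, 679 and 1557 FPKM on day 10 and 2089, 1956 and 2325 FPKM on day 14. With a standard error of 0.34 its log2 fold change reached 1.07, at an adjusted p of 0.365 from limma. *Bcl2l1*, an inhibitor of apoptosis, and *Nos2*, the inducible nitric oxide synthase, were the lower targets with the smallest p, at log2 fold changes of −0.14 and −0.24 (adjusted p = 0.889 and 0.966 from limma). *Nos2* ranged from 4.05 to 37.3 FPKM within day 14.

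Of the 12 ligand genes, 11 were tested. At an unadjusted p under 0.05, 4 were higher and 0 lower, beside 5.6% and 4.4% of all genes. *Il33*, a cytokine of the IL-1 family released from damaged cells, was the most abundant ligand, with 180.3, 226 and 258 FPKM on day 10 and 368, 290.5 and 775 FPKM on day 14. Its days did not overlap (log2 fold change 0.99, adjusted p = 0.403 from limma). *Tnfsf13b*, which encodes BAFF, a ligand of the alternative pathway, had 2.88, 2.68 and 3.53 FPKM on day 10 and 8.80, 6.44 and 5.79 FPKM on day 14 (log2 fold change 1.17, adjusted p = 0.292 from limma). *Il18* had a log2 fold change of −0.51 (adjusted p = 0.510 from limma). *Il1b*, a strong inducer of the pathway and a myeloid product, had 8.39, 24.5 and 4.36 FPKM on day 10 and 34.0 and 34.4 FPKM in replicates 1 and 3 of day 14. In replicate 2 of day 14 it was listed at 0, and its log2 fold change was −0.995 with this sample and 1.81 without it. *Tnf* itself stayed between 0.301 and 1.71 FPKM in all 6 samples; it was named after its values were seen.

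Of the 12 receptor genes, 2 were higher and 0 lower at an unadjusted p under 0.05, beside 5.6% and 4.4% of all genes. *Tnfrsf12a*, which encodes the TWEAK receptor Fn14, was the most abundant, with 79.6, 116 and 127 FPKM on day 10 and 124, 231 and 195 FPKM on day 14 (log2 fold change 0.75, adjusted p = 0.407 from limma). *Tnfrsf1b*, the second TNF receptor, had 6.59, 13.7 and 12.9 FPKM on day 10 and 22.8, 18.4 and 28.4 FPKM on day 14 (log2 fold change 1.11 at an adjusted p of 0.319, limma). The lower receptor with the smallest p was *Ltbr*, the lymphotoxin β receptor (log2 fold change −0.14 at an adjusted p of 0.852, limma).

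Between receptors and IκB, the 23 adaptors and kinases that carry the signal had a median log2 fold change of 0.08. None was higher and 2 were lower at an unadjusted p under 0.05, beside 5.6% and 4.4% of all genes, and 0 had an adjusted p under 0.05 from limma. *Tradd*, the adaptor of the first TNF receptor, had 11.96, 8.64 and 10.8 FPKM on day 10 and 5.76, 3.86 and 8.89 FPKM on day 14 (log2 fold change −0.82, adjusted p = 0.426 from limma). *Sharpin*, a subunit of the linear ubiquitin ligase, had a log2 fold change of −0.48 (adjusted p = 0.492 from limma). *Myd88*, the adaptor of the IL-1 and Toll-like receptors, was the most abundant of this role, at 34.7, 37.8 and 37.3 FPKM on day 10 and 36.8, 38.7 and 51.1 FPKM on day 14 (log2 fold change 0.19, adjusted p = 0.777 from limma). *Irak2* and *Traf2* were the higher ones with the smallest p, at log2 fold changes of 0.67 and 0.41 (adjusted p = 0.519 and 0.637 from limma).

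Of the 16 genes listed as other inhibitors or regulators, 2 were higher and 0 lower at an unadjusted p under 0.05, beside 5.6% and 4.4% of all genes. *Peli1*, an E3 ubiquitin ligase, had 11.3, 12.03 and 14.1 FPKM on day 10 and 18.4, 24.2 and 21.8 FPKM on day 14 (log2 fold change 0.78, adjusted p = 0.297 from limma). *Tnip1*, a partner of A20, had 4.81, 4.58 and 4.91 FPKM on day 10 and 9.96, 5.003 and 9.26 FPKM on day 14 (log2 fold change 0.69, adjusted p = 0.463 from limma). As in *Tnfaip3*, replicate 2 of day 14 was the sample closest to day 10. *Rnf11* was the most abundant of this role (log2 fold change 0.17, adjusted p = 0.782 from limma). *Nfkbid* and *Itch* were the lower ones with the smallest p, at log2 fold changes of −0.53 and −0.19 (adjusted p = 0.789 and 0.843 from limma).

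Digestion of tissue is known to induce early response genes. The summed FPKM of 12 such genes, among them *Fos*, *Jun* and *Egr1*, was 6309, 4517 and 4846 on day 10 and 6466, 5826 and 5057 on day 14, and 8 of the 12 had a higher mean on day 14. The samples of the days overlapped, and the part of the second digestion in the levels of the 10 genes was not tested.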

How the data were processed

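Single-end reads of 75 bases were aligned to mm10 by the authors (TopHat2 2.0.13, Bowtie2 2.2.3, SAMtools 0.1.19), who obtained FPKM per gene from Cufflinks 2.2.1 and deposited 1 file of FPKM values per sample. The gene annotation and the treatment of reads that map to several genes are not given in the sources used here. In 1 file, 25 symbols read as dates and were restored by position.

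The log2(FPKM + 0.1) values were compared by limma 3.58.1 under R 4.3.3, using its trended eBayes variance, for genes with a mean FPKM above 0.1, with the day as the only factor and Benjamini-Hochberg adjustment over the 19526 genes. The fit was also run on simulated data with known changes and independent noise for each gene, and the outcome is not reported here. p-values measure the spread between these samples. Mapped reads were estimated from values up to 0.3 FPKM of 1977 genes with 1 transcript, with a fragment length of 200 bases, under which 74.2% to 79.0% of the values lay within 0.1 of a whole number of reads. Coordinates are from GENCODE vM21 (mm10) and promoters from RefSeq (GRCm38.p6).

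The 10 genes, the pathway list, the marker lists and the tests were chosen with earlier results of these data known. Pathway genes named in the text are, by role, the one with the highest mean, up to 2 in each direction with the smallest p at a mean of at least 1 FPKM, and any with an adjusted p under 0.05, and the likeness to *Nfkbia* and *Icam1* is Pearson's r over the 6 samples. Alternatives were another pseudocount (1 or 0.01), filter, scaling or variance model, a replicate block, and leaving out each sample.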

Additional observations from a re-analysis of the deposited data

How the results depend on the processing

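All 10 genes had a higher mean on day 14 in the 14 alternatives, and the median log2 fold change of the 10 lay between 0.64 and 1.02. When each sample was left out in turn, the number of the 10 genes over 2-fold ranged from 2 to 7. It was 5 without replicate 3 of day 10 and 7 without replicate 2 of day 14, and the share of all genes over 2-fold was not computed. The number of the 10 genes with fully separated days ranged from 5 to 10, with 8 and 10 without those samples. Days separate more easily with fewer samples. Over all genes 9.42% to 15.4% were separated upward in these fits, with 12.8% and 15.4% without those samples and 7.59% with all samples. With each sample scaled to the same FPKM sum, 4 of the 10 genes were separated, beside 5.90% of all genes. *Cxcl2* was the 1 pathway gene past an adjusted p of 0.05 in limma, and the count was 0 with the FPKM sum scaling, without the mean-variance trend, with the replicate block and with any 1 sample left out (range 0 to 0). At an unadjusted p under 0.05, 16, 10 and 27 pathway genes were higher and 2, 1 and 2 lower in the first 3 of these fits, and 8 to 28 were higher and 0 to 3 lower with 1 sample left out. Over all genes, in either direction, the counts at that limma p were 1867, 1340 and 2130 in those 3 fits. They were 948 to 2666 with 1 sample left out. The number of pathway genes over 2-fold higher at an unadjusted p under 0.05 ranged from 6 to 18 when 1 sample was left out, with 6 without replicate 1 of day 10 or replicate 3 of day 14 and 18 without replicate 2 of day 14. Over all genes and both directions, the matching counts in these 3 fits were 433, 601 and 1292. For pathway genes over 2-fold lower the number ranged from 0 to 2, with 2 without replicate 3 of day 14. It was 1 with no filter and 1 without the trend, where the all-gene counts in both directions were 797 and 748. Over all genes, an adjusted p under 0.05 was found in 3 genes, and in 3 to 8 when 1 sample was left out. A fold change over 2 with an unadjusted p under 0.05 was found in 748 genes, in 476 with a mean FPKM above 1, in 363 with a pseudocount of 1, and in 433 to 1677 when 1 sample was left out. *Il1b* ranged from −2.40 to 1.81 on the log2 scale when 1 sample was left out (1.81 without replicate 2 of day 14), *Itch* from −0.32 to 0.012 (0.012 without replicate 1 of day 14), and *Nos2* from −1.10 to 0.66, with 0.097, 0.28 and 0.66 without day 10 replicate 2, day 10 replicate 3 and day 14 replicate 2. Some of these fits use fewer samples or genes and others change only the pseudocount, the scaling or the model, and the cause of the shifts was not tested. The labels number the replicates 1 to 3 on both days. In the replicate block, all genes called at an adjusted p under 0.05 numbered 2, and the deviations of same-numbered samples correlated at −0.00584 to 0.0887 across genes, so the samples were taken to share only a number, although each correlated best with its own number except replicate 2 of each day. The median log2 fold change of all genes lay between −0.10 and 0.02 in the alternatives, and *Cxcl2* had an adjusted p of 0.0573 from limma with the block. At 3 samples a day and 4527239 to 7737760 estimated reads, genes such as *Nfkbie* rested on few reads.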

Other observations

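A group of pathway genes had their highest value in replicate 3 of day 14, and they were singled out after their values were seen. *Il1rl1*, which encodes ST2, the receptor for IL-33, had 26.8 to 52.5 FPKM in the other 5 samples and 295 FPKM in that sample, in which *Il33* was also highest (775 FPKM). *Saa3*, an acute phase gene, had 2746 FPKM there and 239 to 1417 FPKM in the others. *Mmp3*, a matrix metalloproteinase, had 650.1 FPKM there and 94.1 to 215 FPKM in the others. This sample also had the highest myeloid sum (618 FPKM), and the relation was not tested.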
